A study of Homo sapiens with 18 samples.

Results

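The genes described here are the replication-dependent core and linker histone genes, measured in oral squamous cell carcinoma (OSCC) cells in which β-catenin activity was reduced in 1 of 2 ways. Members were taken by name: the probesets of the array whose gene symbol was H1-1 to H1-5 or began with H2AC, H2BC, H3C or H4C, with pseudogenes left out. This gave 54 of 23786 probesets, of which 5 belonged to linker histone H1, 12 to H2A, 16 to H2B, 11 to H3 and 10 to H4. A further 2 probesets of pseudogenes were left out, and 15 protein-coding genes that fit the same naming rule were not analysed here. By position, 46 members lie on chromosome 6, 7 on chromosome 1 and 1, H4C16, on chromosome 12.

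RNA of 18 wells in 6 groups of 3 separate wells was profiled on whole-transcript arrays. HSC-3 cells, a metastatic OSCC line, were treated with 10 µM ICG-001, a small molecule that blocks binding of β-catenin to the co-activator CBP, or with 0.1% DMSO, and CAL27 cells, a non-metastatic OSCC line, were given the same 2 treatments. In a separate set, HSC-3 cells were transfected with 25 nM of a pool of siRNAs against CTNNB1, the gene of β-catenin, or with 25 nM of a non-targeting siRNA pool, named Control siRNA below. Harvest was 48 to 64 h later by the labels, and the study's methods give 48 h for the siRNA cells. Each line is a single established culture, so the 3 wells of a group measure the spread between wells of 1 line, and the p-values below refer to that spread only. Values are log2 expression after robust multi-array average (RMA) normalization, done separately for the 12 ICG-001 arrays and the siRNA arrays, so levels were compared only within a set.

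Histone proteins package DNA into nucleosomes: H3 and H4 form the central tetramer, dimers of H2A and H2B complete the particle, and H1 binds the linker DNA where it enters and leaves. The replication-dependent genes supply these proteins while DNA is being copied, and they are switched on at the start of S phase through the co-activator NPAT, a target of cyclin E and CDK2. Their mRNAs are unusual in ending in a stem-loop rather than a poly(A) tail. The stem-loop is bound by SLBP, which acts in 3′ processing, translation and timed decay. A few of these genes are known to give polyadenylated transcripts as well, mainly in cells that leave the cycle or differentiate. Members of 1 core class, H2A, H2B, H3 or H4, have closely similar coding sequences. A probeset may therefore also have read transcripts of other members, and values of single genes are given with that limit.

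The promoters differed between classes, and they are shown because genes of 1 class did not all respond in the same direction. RefSeq promoter sequences (GRCh38.p14) were matched for 50 of the 54 members. Within the 250 bases upstream of the start, on either strand, the octamer ATTTGCAT, the binding motif of POU-domain factors, stood in 22 of the 50 promoters (44.0%), against 1.66% of all 27305 promoters. It stood in 9 of 12 H2A and 12 of 16 H2B promoters, in 1 of 9 H3 promoters and in 0 of 8 H4 and 0 of 5 H1 promoters. The letters CCAAT were found in 44 of the 50 promoters, against 33.0% of all promoters, with H4 as the exception at 2 of 8. The letters TATAAA were found in 35 of the 50, against 11.1% of all. None of the 3 motifs contains another, though neighbouring matches can share letters. There are 8 pairs of H2A and H2B genes that are transcribed away from each other and share part of this window, so the H2A and H2B counts are not separate. A match describes letters only.
The 100 bases before the start are given here, 5′ to 3′ on the gene's own strand, for members with opposite responses, with the 3 motifs in capitals wherever they stood on either strand. H2BC21 (chr1:149886683-149886782, minus strand), H2BC5 (chr6:26158021-26158120, plus strand) and H2BC18 (chr1:149812371-149812470, minus strand) were higher with ICG-001 in HSC-3 cells. H2BC14 (chr6:27814922-27815021, plus strand), H3C8 (chr6:26271414-26271513, minus strand) and H4C13 (chr6:27873535-27873634, minus strand) were lower. H2BC8 (chr6:26216689-26216788, minus strand) was high on single arrays.
H2BC21: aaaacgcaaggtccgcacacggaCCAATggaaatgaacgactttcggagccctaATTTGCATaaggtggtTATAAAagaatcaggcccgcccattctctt
H2BC5: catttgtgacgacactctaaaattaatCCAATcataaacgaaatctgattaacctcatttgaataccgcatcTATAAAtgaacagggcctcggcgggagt
H2BC18: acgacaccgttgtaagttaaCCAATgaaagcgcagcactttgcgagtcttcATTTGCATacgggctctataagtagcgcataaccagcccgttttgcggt
H2BC14: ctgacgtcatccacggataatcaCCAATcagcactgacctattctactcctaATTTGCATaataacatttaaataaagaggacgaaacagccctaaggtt
H2BC8: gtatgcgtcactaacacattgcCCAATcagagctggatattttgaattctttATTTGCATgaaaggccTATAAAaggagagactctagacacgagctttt
H3C8: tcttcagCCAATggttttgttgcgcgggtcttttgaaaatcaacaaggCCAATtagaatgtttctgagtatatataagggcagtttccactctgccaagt
H4C13: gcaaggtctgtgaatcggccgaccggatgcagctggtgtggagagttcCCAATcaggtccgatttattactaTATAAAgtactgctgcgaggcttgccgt

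Among the 4 H2B promoters that went with opposite responses, H2BC21, H2BC18 and H2BC14 all held the octamer and CCAAT within these 100 bases, and H2BC5 held CCAAT and TATAAA without the octamer.

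Replicate arrays correlated at 0.993 to 0.996 over all probesets, and array medians lay between 4.73 and 4.77 in the ICG-001 set and between 4.68 and 4.73 in the siRNA set. Of 6 squamous epithelial markers, 5 were above the array median on all 18 arrays, whereas 3 of 4 fibroblast, 2 of 3 endothelial and 3 of 4 leukocyte markers were above it on none. CTNNB1 itself read 6.90 to 7.35 with CTNNB1 siRNA and 10.19 to 10.26 with Control siRNA, a log2 fold change of −3.06 (limma, adjusted p = 0.000495). A probeset was tested if any array of its set showed it above that array's median, which 13493 probesets did in the ICG-001 set and 12682 in the siRNA set. Of the histone genes, 43 were tested in the ICG-001 set, of which 34 were above the median on all 12 arrays. The other 11 were above it on none, at 0.95 to 4.49 over both sets: H1-3, H2AC1, H2AC14, H2AC25, H2BC1, H2BC10, H3C3, H3C13, H4C6, H4C7 and H4C11. In the siRNA set 42 were tested, with H2AC7 as the additional gene below the median. H2AC7 was tested in the ICG-001 set only because of 1 array, HSC-3 ICG-001 replicate 1, and H3C12 was above the median on no HSC-3 ICG-001 array and on the other 9 arrays of the set. H2BC18 was above it on 6 of the 12 arrays, with 0 of CAL27 ICG-001 and 1 of HSC-3 DMSO. H2BC11 was above it on 2 arrays, 0 of them from CAL27 cells. Changes of these genes thus rest in part on values below the median.

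In HSC-3 cells, ICG-001 moved the histone genes in both directions. Of the 43 tested, 12 were lower and 5 were higher at an adjusted p no greater than 0.05, and 26 passed in neither direction. Over all 13493 probesets tested, 23.6% were lower and 24.2% were higher in this comparison, beside 27.9% and 11.6% of the histone genes. Without ICG-001 replicate 1, an array left out because some histone genes read high on it, the lower genes numbered 18 and the higher genes 6. At the thresholds of the study's methods (adjusted p no greater than 0.01, with a 1.5-fold change or more), 6 were lower and 2 were higher, against 8% and 9.02% of all probesets. The median log2 fold change of the 43 was −0.0074, against 0.00081 for all probesets tested. The 3 ICG-001 values lay outside the range of the 3 DMSO values for 21 of the 43, below it for 14 and above it for 7, where the same held below for 30.7% and above for 31.1% of all probesets tested. These are bulk measurements, in which fewer cells in S phase and less histone mRNA per cell cannot be told apart.

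Of 4 linker histone genes tested, 1 was lower and 0 were higher, beside 23.6% and 24.2% of all probesets tested. The counts by class in HSC-3 cells rest on 4 to 14 genes each and stand beside the same shares. H1-5 read 9.19, 9.26 and 9.32 with ICG-001, against 9.83, 9.82 and 9.79 with DMSO. All ICG-001 arrays were below all DMSO arrays (log2 fold change −0.56, SE 0.07, limma adjusted p = 0.000821). H1-2, which also gives polyadenylated mRNA, read 9.50, 9.61 and 9.48 against 9.45, 9.44 and 9.37 (0.11, adjusted p = 0.255). H1-1 and H1-4 had log2 fold changes of −0.17 and −0.06, neither past the threshold.

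Of 9 H2A genes tested, 4 were lower and 1 was higher. H2AC4 read 6.31, 6.96 and 6.81 with ICG-001 and 7.86, 8.16 and 8.01 with DMSO, a 2.5-fold fall (log2 fold change −1.32, SE 0.18, limma adjusted p = 0.00117). H2AC15 read 6.44, 6.47 and 6.51 against 7.31, 7.13 and 7.23 (−0.75, adjusted p = 0.000377). In both genes the groups were separate by more than the range within either group. H2AC13 and H2AC8 were lower by smaller amounts, with log2 fold changes of −0.51 and −0.35 (adjusted p = 0.00253 and 0.00859). H2AC21, on chromosome 1, went the other way, at 11.05, 10.62 and 10.74 with ICG-001 against 10.25, 10.26 and 10.26 with DMSO (0.55, adjusted p = 0.00771). Its neighbour H2AC20 had a log2 fold change of −0.04. H2AC6, a member with polyadenylated transcripts, read 11.19, 10.85 and 10.54 against 10.60, 10.61 and 10.65, so its groups overlapped (0.24, adjusted p = 0.246).

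H2B was the class with more genes up than down: 4 of 14 tested were higher and 2 were lower, beside 24.2% and 23.6% of all probesets. The 4 higher genes were thus near the share of all probesets. H2BC21 read 7.19, 7.37 and 7.29 with ICG-001 and 5.84, 6.11 and 5.99 with DMSO, a 2.47-fold rise (log2 fold change 1.30, SE 0.10, limma adjusted p = 0.00012). H2BC5 read 7.356, 7.395 and 7.057 against 6.04, 5.88 and 6.10 (1.26, SE 0.11, adjusted p = 0.000255). Both are among the members known to give polyadenylated mRNA, and in both every ICG-001 array was at least as far above the highest DMSO array as the DMSO arrays were from each other. H2BC18 read 5.73, 6.24 and 6.17 against 5.19, 3.52 and 3.57 (1.95, SE 0.44, adjusted p = 0.0106). Its DMSO replicate 1 stood apart from the other DMSO arrays, and without it the log2 fold change was 2.50. DMSO replicates 2 and 3 were below the array median. H2BC26 read 8.46, 7.08 and 7.14 against 6.49, 6.16 and 6.01 (1.34, adjusted p = 0.022). Without ICG-001 replicate 1 its log2 fold change was 0.89 and still past the threshold, and it was not past it without DMSO replicate 2 or DMSO replicate 3, at 1.31 and 1.24. The 2 lower genes were H2BC14, at 8.95, 8.64 and 8.71 with ICG-001 against 9.78, 9.62 and 9.77 with DMSO (−0.96, SE 0.10, adjusted p = 0.000502), and H2BC12, at 9.75, 9.55 and 9.56 against 10.08, 9.93 and 10.08 (−0.41, adjusted p = 0.00863). H2BC12 is another H2B gene with polyadenylated transcripts, so of the 5 measured members of that kind, H2BC5 and H2BC21 were higher, H2BC12 was lower, and H1-2 and H2AC6 did not pass. By position, 4 of 5 tested members on chromosome 1 were higher and 0 were lower, and on chromosome 6 it was 1 higher and 11 lower of 37. Over all probesets tested, 24.2% were higher and 23.6% lower. The higher genes on chromosome 1 were H2AC21, H2BC18, H2BC21 and H2BC26, mostly of H2B. On chromosome 6 the 1 higher gene, H2BC5, was also of H2B, and the lower H2BC12 and H2BC14 lie there too. Position was not tested apart from class.

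Of 9 H3 genes tested, 3 were lower and 0 were higher. H3C12 had the most negative log2 fold change of the 43 tested members, at 4.65, 4.37 and 4.33 with ICG-001 against 5.81, 5.86 and 5.73 with DMSO, or 2.55-fold (log2 fold change −1.35, SE 0.10, limma adjusted p = 0.000131). H3C8 read 8.68, 8.32 and 8.34 against 9.56, 9.41 and 9.29 (−0.97, SE 0.13, adjusted p = 0.000968). H3C11 varied little between wells, at 11.39, 11.38 and 11.42 against 11.93, 11.95 and 11.97 (−0.56, SE 0.06, adjusted p = 0.000588). No ICG-001 array of these genes reached a DMSO value.

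Of 7 H4 genes tested, 2 were lower and 0 were higher. H4C13 read 8.93, 8.91 and 9.08 with ICG-001 and 9.80, 9.90 and 10.00 with DMSO (log2 fold change −0.93, SE 0.09, limma adjusted p = 0.000287). H4C16 read 9.89, 9.94 and 9.98 against 10.57, 10.37 and 10.61 (−0.58, adjusted p = 0.0019). H4C5, which encodes the same protein as both of these, read 11.04, 10.93 and 10.95 against 11.02, 10.93 and 10.96, with a log2 fold change of 0.0039. H4C1 lay above its DMSO values on all ICG-001 arrays, at 7.66, 6.90 and 6.68 against 6.29, 6.51 and 6.49, and missed the threshold (0.65, adjusted p = 0.0632). H4C3 fell just short in the other direction (−0.42, adjusted p = 0.0634).

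**Figure D1:**
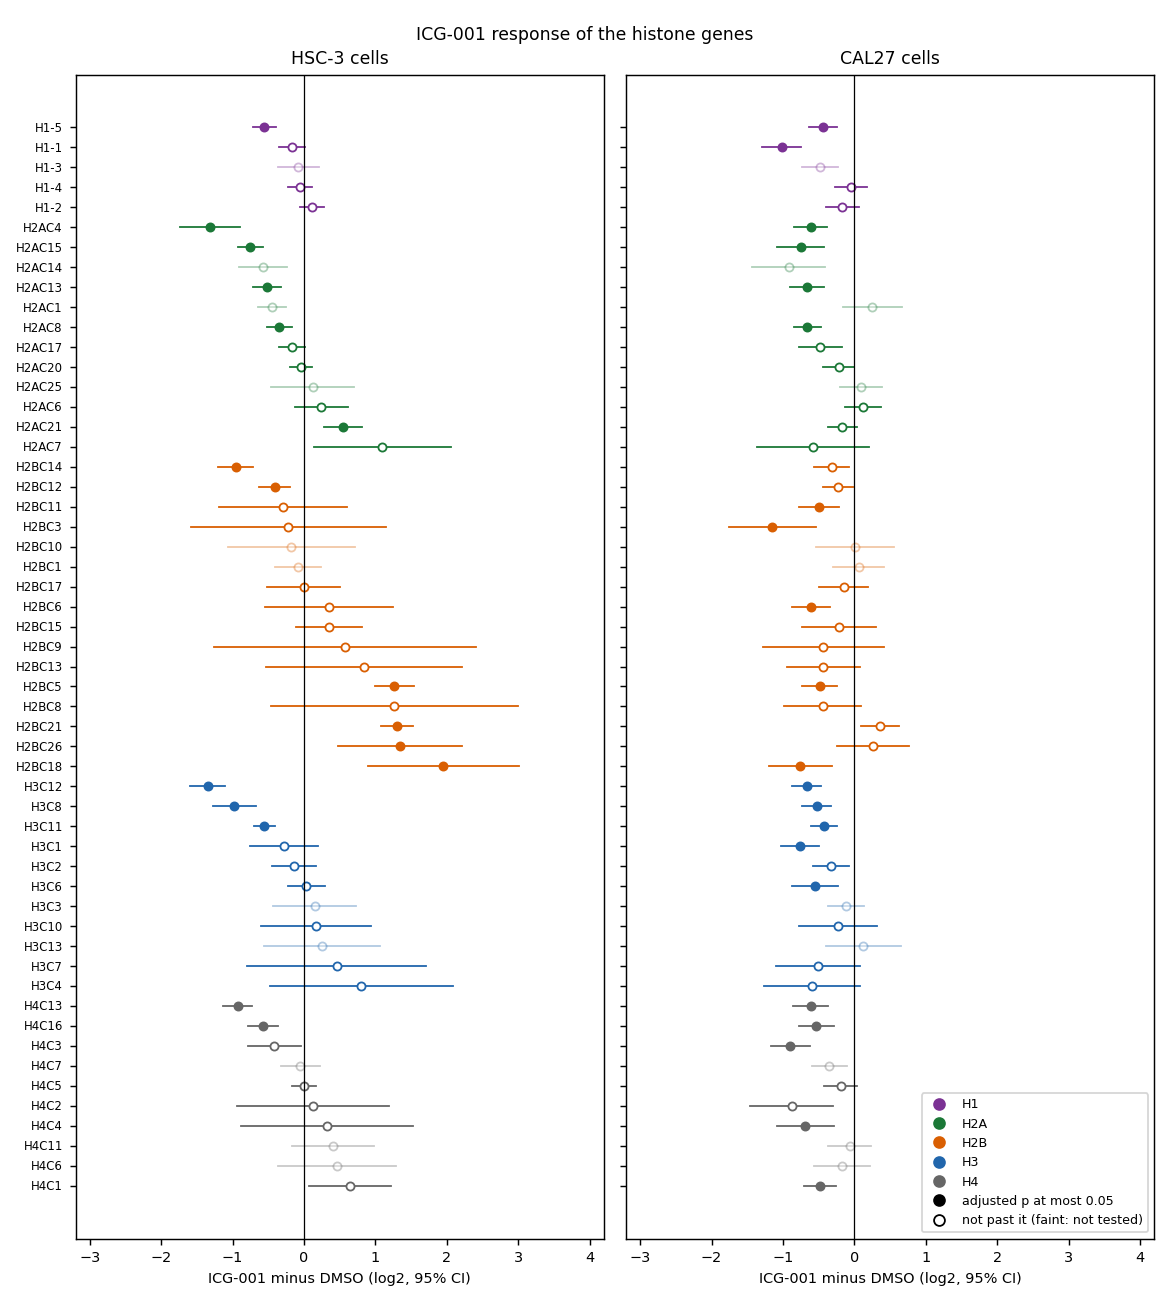
Log2 fold change of ICG-001 over DMSO with its 95% confidence interval for all 54 histone genes, in HSC-3 cells (left) and CAL27 cells (right), ordered by class and by the HSC-3 value. Filled points passed an adjusted p of at most 0.05; in HSC-3 cells 12 lie below 0 and 5 above, in CAL27 cells all 21 lie below 0.

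A part of the uncertainty in HSC-3 cells came from 1 array. On HSC-3 ICG-001 replicate 1, 14 of the 13493 tested probesets read more than 1 log2 unit above both other replicates, and 13 of the 14 were histone genes. They were 7 H2B genes (H2BC3, H2BC6, H2BC8, H2BC9, H2BC11, H2BC13 and H2BC26), 3 H3 genes (H3C4, H3C7 and H3C10), 2 H4 genes (H4C2 and H4C4) and H2AC7, with 12 of the 13 on chromosome 6. The remaining probeset was NDRG2. These genes were chosen here for that array, so the excess on it is a description. H2AC7 was moreover tested only because of its value on this same array. H2BC9 was the farthest out, at 9.64, 6.97 and 6.45 with ICG-001 against 7.43, 7.09 and 6.81 with DMSO. H2BC8 read 8.28, 5.75 and 5.23 against 5.15, 5.25 and 5.06. H4C4 read 9.01, 6.98 and 7.13 against 7.36, 7.38 and 7.42. In each, replicate 1 was high alone, and replicates 2 and 3 were near the DMSO values or below them. The other 30 tested members had a median gap of 0.12 to the mean of the other 2 replicates on this array, against 1.96 for the 13. Of these 30, H2BC15, H2BC17, H3C1 and H4C1 lay 0.59 to 0.76 above both other replicates, so that 17 of the 74 probesets more than 0.5 above both were histone genes. Only H2BC26 of the 13 passed the test in the comparison with DMSO.

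A smaller excess of the same genes was present on 1 array of the siRNA set. On HSC-3 Control siRNA replicate 1, 4 of 12682 probesets read more than 1 above both other replicates, and all 4 were histone genes: H2BC8 by 1.71, H4C2 by 1.38, H4C4 by 1.31 and H2BC9 by 1.22. H2BC8 read 6.46, 6.80 and 6.83 with CTNNB1 siRNA and 8.60, 6.88 and 6.46 with Control siRNA. Of the 13 genes, 12 were tested in that set, and all 12 lay above the mean of the other replicates on Control siRNA replicate 1 (median gap 0.96) and below it on replicate 3 (−0.75). The other 30 members had median gaps of −0.06 and −0.07 on those 2 arrays. In CAL27 cells the 13 also spread more than the rest, with a median gap of −0.65 on DMSO replicate 1 and 0.49 on ICG-001 replicate 3, against −0.05 and −0.04 for the other 30. In HSC-3 cells with DMSO their median gaps were 0.006, −0.06 and 0.05. Over all tested members, the median SD within a group was 0.22 in HSC-3 ICG-001, 0.09 in HSC-3 DMSO, 0.14 in CAL27 ICG-001, 0.14 in CAL27 DMSO, 0.08 in CTNNB1 siRNA and 0.14 in Control siRNA, against 0.09, 0.08, 0.10, 0.12, 0.08 and 0.09 for all probesets tested. The cause of these excesses was not tested.

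**Figure D2:**
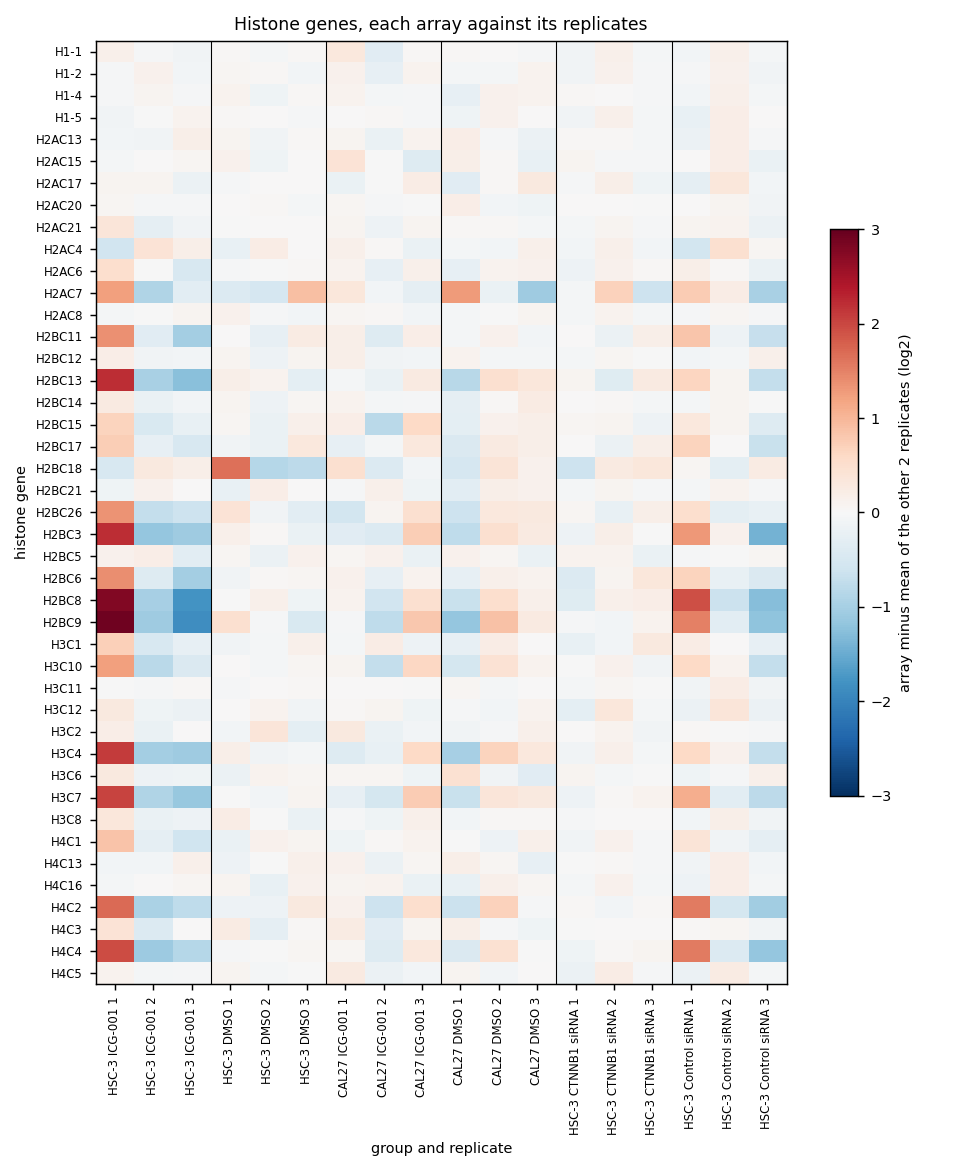
Each tested histone gene (down the page, by class) on each of the 18 arrays (across, by group and replicate), coloured by the log2 difference from the mean of the other 2 replicates of its group. The column of HSC-3 ICG-001 replicate 1 is red for 13 genes, mostly of H2B, and the same genes are paler red on Control siRNA replicate 1 and blue on Control siRNA replicate 3.

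Without HSC-3 ICG-001 replicate 1, 18 histone genes were lower, or 41.9% of the 43, and 6 were higher, against 20.8% and 20.9% of all probesets tested, and the median log2 fold change of the histone genes was −0.22. That array was left out because histone genes read high on it, so a downward move of those genes follows from the choice. The shares of all probesets are therefore no test of that move. The intensity filter still used that array, so H2AC7 stayed among the 43. All 12 genes that were lower and all 5 that were higher on the full set were called again in the same direction. The 6 added lower genes were H2BC3 (log2 fold change −0.96, limma adjusted p = 0.00137), H2BC11 (−0.75, adjusted p = 0.0172), H4C3 (−0.55, adjusted p = 0.0252), H3C1 (−0.52, adjusted p = 0.00861), H4C2 (−0.44, adjusted p = 0.0343) and H4C4 (−0.34, adjusted p = 0.0245). H4C1 was added to the higher genes (0.36, adjusted p = 0.0496). With 2 arrays against 3, 5 of 7 tested H4 genes were lower, against 2 of 7 with all arrays. H2B stayed divided, at 4 lower and 4 higher of 14.

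**Figure D3:**
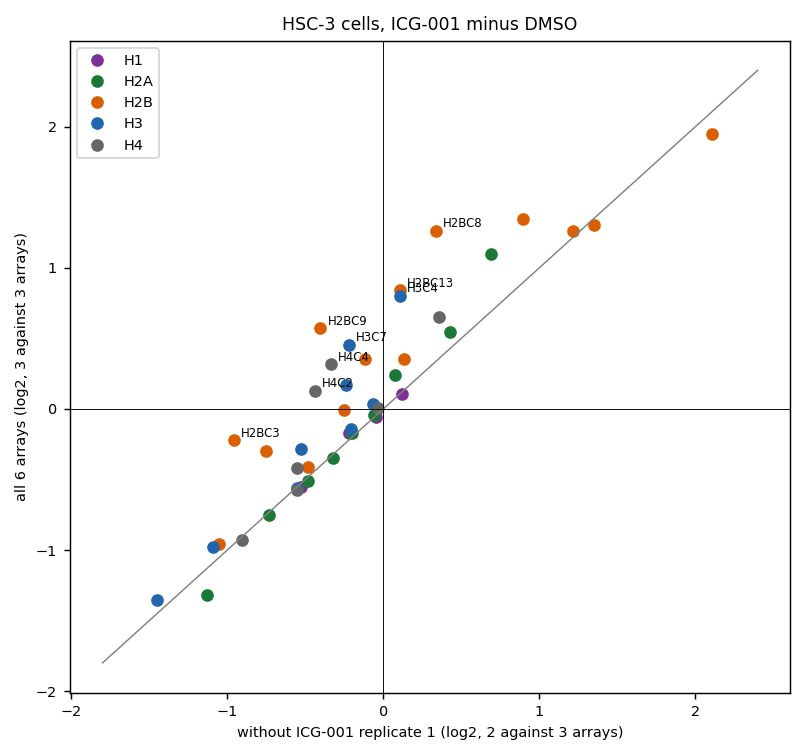
Log2 fold change of ICG-001 over DMSO in HSC-3 cells for the 43 tested histone genes, computed without ICG-001 replicate 1 (x axis) and with all 6 arrays (y axis), coloured by class, with the line of equal values. Most genes lie on the line, and the named ones above it are those that read high on replicate 1, such as H2BC3 at −0.96 without that array and −0.22 with it.

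In CAL27 cells the shift was mainly downward. ICG-001 lowered 21 of the 43 tested histone genes and raised 0, and 22 did not pass. Of all 13493 probesets tested, 5.9% were lower and 5.33% were higher. At an unadjusted p below 0.05 limma gave 27 lower and 1 higher, against 13.8% and 13.5% of all probesets, and a fit with a trended, robust prior and a single fit over 12 arrays each called 1 higher. At the thresholds of the study's methods, 7 were lower and 0 were higher, against 1.72% and 1.64% of all probesets. The median log2 fold change was −0.49, against 0.0044 for all probesets tested, and 40 of the 43 values were below 0. Groups did not overlap for 30 genes, of which 29 were below their DMSO values and 1 was above, against 18.7% below and 18.2% above over all probesets tested. By class, 2 of 4 H1, 4 of 9 H2A, 5 of 14 H2B, 5 of 9 H3 and 5 of 7 H4 genes were lower.

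H1-1 had the smallest adjusted p, at 5.12, 4.69 and 4.93 with ICG-001 against 5.97, 5.94 and 5.91 with DMSO, a 2.03-fold fall (log2 fold change −1.02, SE 0.12, limma adjusted p = 0.00201). H4C3 read 10.80, 10.41 and 10.68 against 11.64, 11.51 and 11.44 (−0.90, SE 0.12, adjusted p = 0.00361). H2AC8 read 6.90, 6.89 and 6.81 against 7.49, 7.51 and 7.58 (−0.66, SE 0.08, adjusted p = 0.00272). In all of these the groups were far apart relative to their spread. H3C12 read 5.39, 5.42 and 5.27 against 6.01, 5.98 and 6.09 (−0.67, SE 0.09, adjusted p = 0.00333). H3C1 read 6.70, 6.88 and 6.64 against 7.33, 7.65 and 7.51 (−0.76, SE 0.12, adjusted p = 0.00607). H2AC13, H2AC4 and H3C8 followed, with log2 fold changes of −0.66, −0.61 and −0.53 (adjusted p = 0.00701, 0.00743 and 0.00909). H2BC3 had the most negative value, at 5.56, 5.50 and 6.27 against 6.42, 7.25 and 7.11 (−1.15, SE 0.26, adjusted p = 0.0303), and its ICG-001 replicate 3 came close to the lowest DMSO array. H2BC3 lost the call when ICG-001 replicate 1 or 2, or DMSO replicate 2 or 3, was left out, at −1.06 to −0.99.

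The CAL27 calls leaned on single arrays more than those in HSC-3 cells. Of the 21, 9 held under every setting that kept the adjusted p of 0.05 (H1-1, H2AC4, H2AC8, H2AC13, H3C1, H3C8, H3C12, H4C3 and H4C13), though H3C8 and H4C13 did not meet the study's thresholds. The count was 11 without DMSO replicate 2, 13 without ICG-001 replicate 2 and 13 without ICG-001 replicate 3. The shares of all probesets in these fits are not given here, so a general loss of calls with fewer arrays was not set apart. Of the 5 members with polyadenylated transcripts, only H2BC5 passed, in the downward direction, at 5.74, 5.79 and 5.56 with ICG-001 against 6.28, 6.22 and 6.05 with DMSO (log2 fold change −0.49, limma adjusted p = 0.0236). This call was lost when ICG-001 replicate 1 or 3, or DMSO replicate 1 or 2, was left out, at −0.51 to −0.42. H2BC21 was the 1 member whose ICG-001 arrays all lay above the DMSO arrays, at 6.883, 7.004 and 6.81 against 6.33, 6.65 and 6.63, without passing (0.36, adjusted p = 0.084). H1-2, H2AC6 and H2BC12 had log2 fold changes of −0.17, 0.12 and −0.23 (adjusted p = 0.318, 0.521 and 0.153).

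**Figure D4:**
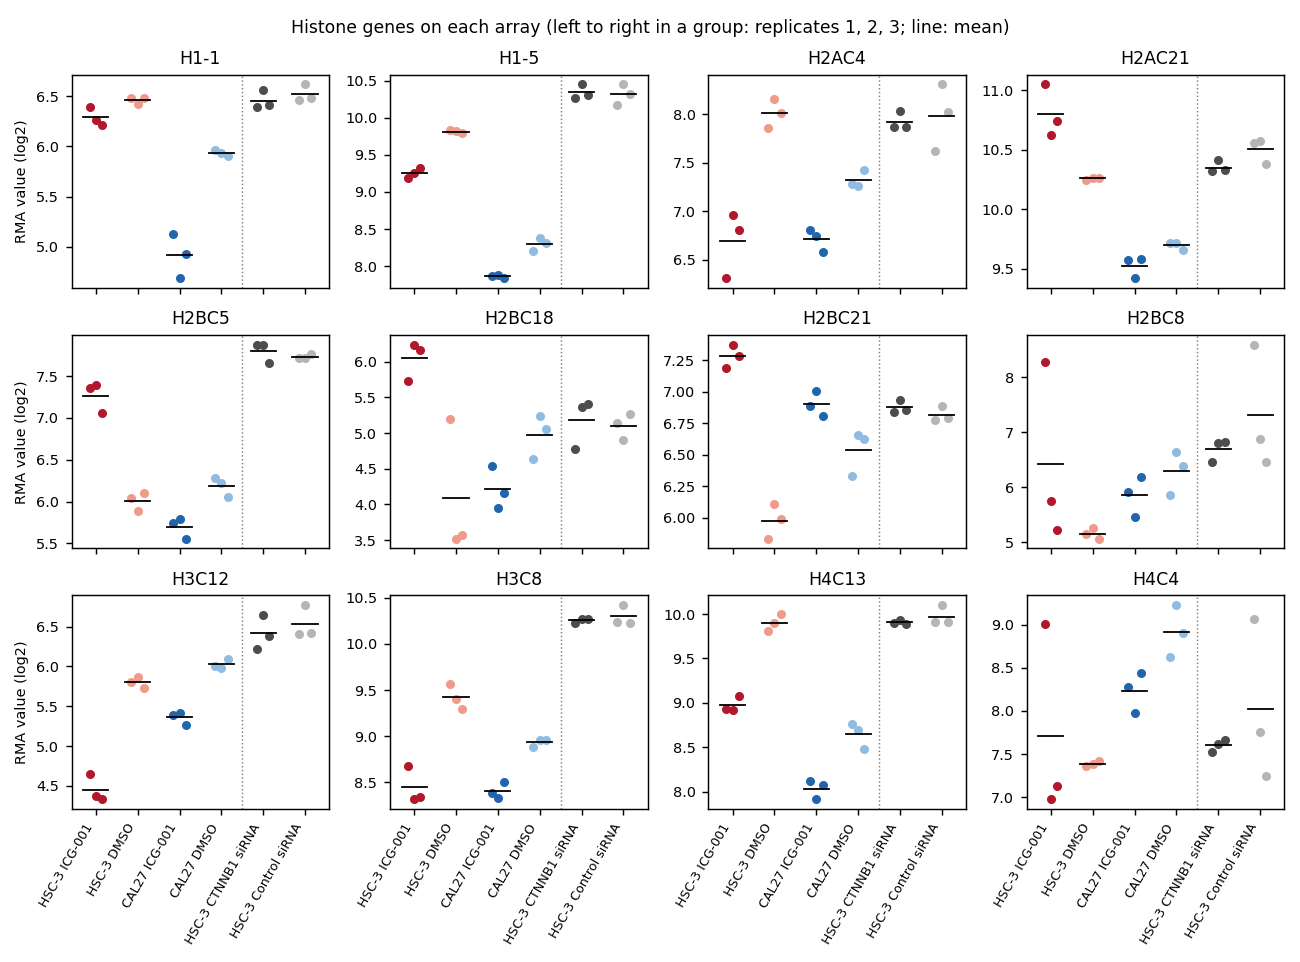
RMA value (log2) of 12 histone genes on each of the 18 arrays, 1 panel a gene, with points for replicates 1, 2 and 3 from left to right in a group and a line at the group mean; the dotted line separates the 2 normalization sets, whose levels are not compared. H2AC4, H3C12, H3C8 and H4C13 were lower with ICG-001 in both lines, H2BC5 was higher with ICG-001 in HSC-3 cells and lower in CAL27 cells, and H2BC8 and H4C4 were high on single arrays.

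Part of the falls were shared by the lines. Lower in both were 10 genes, H1-5, H2AC4, H2AC8, H2AC13, H2AC15, H3C8, H3C11, H3C12, H4C13 and H4C16, which is 83.3% of the 12 in HSC-3 cells and 47.6% of the 21 in CAL27 cells. Over all 13493 probesets tested, 449 (3.33%) were lower in both lines. On the same bases, that was 449 of the 3180 lower in HSC-3 cells and 449 of the 796 lower in CAL27 cells. The histone share of the CAL27 falls was thus no higher than that of all probesets. H2BC12 and H2BC14 passed downward in HSC-3 cells and did not pass in CAL27 cells. The difference between the lines was past the threshold for H2BC14 and not for H2BC12 (−0.18, limma adjusted p = 0.303). Without HSC-3 ICG-001 replicate 1, 15 of the 18 genes lower in HSC-3 cells were also lower in CAL27 cells. Of all probesets lower in HSC-3 cells in that fit, this was 428 of 2813 (3.17% of all probesets tested). That array was left out because histone genes read high on it, so the 18 depend on that choice. H2BC5 and H2BC18 were higher in HSC-3 cells and lower in CAL27 cells. For H2BC18 the CAL27 values were 4.54, 3.95 and 4.16 with ICG-001 and 4.64, 5.23 and 5.06 with DMSO (log2 fold change −0.76, limma adjusted p = 0.0424), and this call did not hold when either ICG-001 replicate 2 or 3, or either DMSO replicate 2 or 3, was dropped, at −0.73 to −0.63.

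The difference between the lines was tested directly, as the response of HSC-3 cells minus that of CAL27 cells. Of the 43 genes, 8 had a higher response in HSC-3 cells and 4 a lower one, against 13.9% and 13.3% of all probesets tested. Neither direction passed for 31 of the 43, beside 9813 of all 13493 probesets, which is a similar share. Without HSC-3 ICG-001 replicate 1 these were 7 and 4, against 12.4% and 12.5%. H2BC5 had the smallest adjusted p, with a difference of 1.75 (SE 0.16, limma adjusted p = 1.86e-05), and H2BC18 had the largest difference, at 2.71 (SE 0.53, adjusted p = 0.00295). H2BC18 was above the array median on only 6 of the 12 arrays, so its difference rests in part on values below it. H2BC21 differed by 0.94 (SE 0.15, adjusted p = 0.000962), with positive values in both lines. H1-1 differed by 0.85 (SE 0.14, adjusted p = 0.00123), since it read 6.39, 6.27 and 6.22 with ICG-001 in HSC-3 cells against 6.48, 6.42 and 6.48 with DMSO, a log2 fold change of −0.17 beside −1.02 in CAL27 cells. H2AC21 differed by 0.72 (adjusted p = 0.00327) and H4C1 by 1.13 (adjusted p = 0.00983). In the other direction H3C12 differed by −0.68 (adjusted p = 0.00281), H2BC14 by −0.64 (adjusted p = 0.00832), H2AC4 by −0.71 (adjusted p = 0.0274) and H3C8 by −0.45 (adjusted p = 0.0477), all falls that were deeper in HSC-3 cells. Of the 10 genes lower in both lines, the difference was below 0 for 7 and above 0 for 3, and it passed the threshold below 0 for H2AC4, H3C8 and H3C12 and above 0 for H2AC8.

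The pairs of H2A and H2B genes that face away from each other, and so share a promoter window, were also set side by side. Among the 5 such pairs with both genes tested, the H2B log2 fold change was above that of its H2A partner in 5 of 5 pairs in HSC-3 cells and in 5 of 5 in CAL27 cells, given here as a description. Without HSC-3 ICG-001 replicate 1 it was 4 of 5 in HSC-3 cells, since H2BC17 then had −0.25 and H2AC17 −0.20. H2BC21 and H2AC20 had log2 fold changes of 1.30 and −0.04 in HSC-3 cells, and 0.36 and −0.22 in CAL27 cells. H2BC15 and H2AC15 had 0.36 and −0.75 in HSC-3 cells, and −0.21 and −0.75 in CAL27 cells. H2BC13 and H2AC13 had 0.84 and −0.51 in HSC-3 cells, and −0.43 and −0.66 in CAL27 cells. H2AC15 and H2AC13 passed the test downward in both lines, and H2BC15 and H2BC13 passed in neither. H2BC8 with H2AC8 had 1.26 and −0.35 in HSC-3 cells, and H2BC17 with H2AC17 had −0.0074 and −0.17. The HSC-3 values of H2BC8 and H2BC13 include ICG-001 replicate 1, on which both read 2.52 and 2.12 above the next replicate.

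Knockdown of CTNNB1 in HSC-3 cells changed no histone gene past the threshold. Limma called 0 of 42 lower and 0 higher, also with a trended, robust prior, against 0.0789% and 0.00789% of 12682 probesets. At an unadjusted p below 0.05, 4 were lower and 0 were higher, against 5.13% and 4.11% of all probesets. The median log2 fold change was −0.12, against 0.0077 for all, and 37 of the 42 values were below 0. Groups did not overlap for 6 genes, all 6 below their Control siRNA values and 0 above, against 9.24% and 9.83% of all probesets. H2BC6 had the smallest p, at 5.10, 5.43 and 5.61 with CTNNB1 siRNA against 6.56, 5.97 and 5.82 with Control siRNA (−0.74, adjusted p = 0.374). H3C7 read 10.02, 10.14 and 10.19 against 11.60, 10.65 and 10.35 (−0.75, adjusted p = 0.498). H4C2 had the most negative value, at 7.11, 7.04 and 7.11 against 9.07, 7.68 and 7.34 (−0.94, adjusted p = 0.545). In all of these Control siRNA replicate 1 was the highest of the 6 arrays. H2BC14 and H3C1 had log2 fold changes of −0.16 and −0.30. Without Control siRNA replicate 1, 0 were lower and 0 were higher, against 0.00789% and 0% of all probesets, 4 were lower and 0 higher at an unadjusted p below 0.05, against 4.64% and 3.93% of all, and the median was −0.09. H2BC8 then had 0.03 in place of −0.61, and H4C4 had 0.10 in place of −0.42. The intervals bound the changes for the genes that ICG-001 moved: the 95% confidence interval of the log2 fold change was −0.46 to 0.33 for H2AC4, −0.46 to 0.22 for H3C12, −0.25 to 0.12 for H4C13, −0.12 to 0.26 for H2BC5 and −0.11 to 0.22 for H2BC21. A missed threshold does not show that these genes were unchanged.

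The lines also differed before treatment. In HSC-3 DMSO relative to CAL27 DMSO, 18 histone genes were higher and 9 were lower, against 30.1% and 28.6% of all probesets tested. The median was 0.08, against 0.02 for all. All 4 tested H1 genes and 7 of 9 H2A genes were higher in HSC-3 cells, whereas 6 of 14 H2B genes were lower and 2 were higher. Of the lower genes, H2BC3, H2BC6, H2BC8, H2BC13 and H4C4 are among the 13 that read high on HSC-3 ICG-001 replicate 1. Those 13 also spread on CAL27 DMSO replicate 1, with a median gap of −0.65. H2BC13 lost the call in 4 settings and H2BC8 in 1. H1-5 read 9.83, 9.82 and 9.79 in HSC-3 cells and 8.21, 8.39 and 8.31 in CAL27 cells (log2 fold change 1.51, SE 0.08, limma adjusted p = 5.29e-06). H4C13 and H2AC15 were higher by 1.25 and 0.99 (adjusted p = 4.05e-05 and 0.00011). H2BC3 was 4.29-fold lower, at 4.93, 4.85 and 4.70 against 6.42, 7.25 and 7.11 (−2.10, SE 0.21, adjusted p = 9.04e-05). H4C4 and H2BC8 had log2 fold changes of −1.53 and −1.14 (adjusted p = 8.1e-05 and 0.00126). The groups of these 6 genes did not overlap, and 29 of the tested histone genes were separate in this way. The share of all probesets with separate groups is not given for this comparison. The separation of the 6 is therefore a description only. These DMSO arrays are the same ones that the ICG-001 comparisons used as controls.

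Genes that act on histone genes and their mRNAs were described in the same comparisons, against the background in HSC-3 cells of 23.6% of all probesets lower and 24.2% higher. Of 12 genes of histone gene transcription, 8 were lower and 1 was higher, with a median log2 fold change of −0.60. They were NPAT, CASP8AP2, HINFP, YY1, CCNE1, CCNE2, CDK2, CDC25A, E2F1, POU2F1, GAPDH and LDHA. The list was thus not limited to genes that act on histone genes alone. The higher gene was HINFP (0.45, limma adjusted p = 0.0028). LDHA averaged 6.82 with ICG-001 and 7.71 with DMSO. CCNE2, which encodes a cyclin E, read 7.12, 6.90 and 6.99 with ICG-001 and 8.59, 8.53 and 8.60 with DMSO (−1.57), and CCNE1, E2F1 and CDC25A had −1.09, −1.20 and −1.28. NPAT, the co-activator that cyclin E and CDK2 phosphorylate, read 7.90, 7.78 and 7.83 against 7.91, 7.93 and 8.03 and did not pass (−0.12, limma adjusted p = 0.215). Of 14 genes of histone mRNA 3′ processing, 7 were lower and 0 were higher. SLBP read 8.35, 8.22 and 8.25 with ICG-001 against 9.001, 9.005 and 9.0 with DMSO (−0.73, adjusted p = 0.000303). Of 11 genes of histone mRNA decay, 3 were lower and 4 were higher, led by the 3′ exonuclease gene ERI1 at 6.14, 5.83 and 6.27 against 7.23, 7.26 and 7.19 (−1.15). Of 21 chaperone genes tested, 16 were lower and 2 were higher, among them HJURP, the chaperone of centromeric H3, at −1.64, and CHAF1B, a subunit of chromatin assembly factor 1, at −1.22. Of 20 DNA replication genes, 20 were lower, with a median of −0.96, as for CDC45 at 7.29, 7.34 and 7.16 against 8.61, 8.63 and 8.58 (−1.35).

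The replication-independent histone genes, most of which are expressed through the cycle from polyadenylated mRNAs, were also mostly lower with ICG-001 in HSC-3 cells, at 6 of 10, with 2 higher. In CAL27 cells, where 5.9% of all probesets were lower and 5.33% higher, 12 of the 20 DNA replication genes were lower, led by TYMS at 8.36, 8.26 and 8.29 against 9.28, 9.22 and 9.18 (−0.93), and 0 were higher. None of the 12 transcription genes, 14 processing genes or 10 replication-independent histone genes passed there. At an unadjusted p below 0.05 limma gave 3, 2 and 2 lower and 0 higher, against 13.8% and 13.5% of all probesets. SLBP was at −0.32 (limma adjusted p = 0.114). Of the 21 chaperone genes 4 were lower in CAL27 cells, and of the 11 decay genes 1, ERI1, at −0.50 (adjusted p = 0.0497). With CTNNB1 siRNA 0 genes of these lists passed in either direction (limma), with TYMS at −0.38 (adjusted p = 0.252). At an unadjusted p below 0.05, 1 transcription, 2 chaperone and 1 DNA replication gene were lower there, and 1 processing and 1 chaperone gene were higher. Of all probesets, 5.13% were lower and 4.11% higher at that threshold with CTNNB1 siRNA. The median log2 fold change of the DNA replication genes was −0.96 in HSC-3 cells, beside −0.0074 for the histone genes, and −0.39 in CAL27 cells, beside −0.49 for the histone genes. Their part in the histone gene values was not tested.

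**Figure D5:**
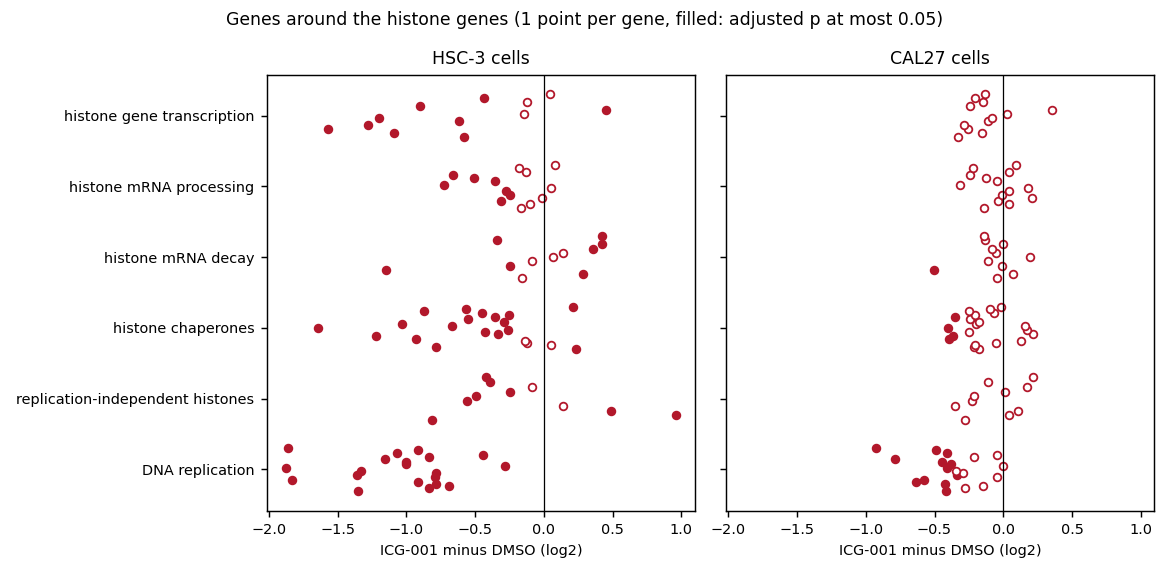
Log2 fold change of ICG-001 over DMSO for each gene of 6 lists around the histone genes, 1 point a gene, in HSC-3 cells (left) and CAL27 cells (right), filled where the adjusted p was at most 0.05. All 20 DNA replication genes lie below 0 and are filled in HSC-3 cells, and 12 of 20 are filled in CAL27 cells.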

How the data were processed

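The platform was the Affymetrix Human Gene 2.0 ST array. The authors normalized raw intensities by RMA (affy 1.36.1, R 2.15.1, per the submitters' processing notes) with probesets redefined to 1 per Entrez gene, and deposited log2 values, the only unit used here. The genome build of the probeset definition was not given in the sources used here. The 12 ICG-001 arrays were normalized together, and the 6 siRNA arrays separately, with further arrays not used here; other columns of per-sample values numbered 0. RMA sets arrays to a common distribution, so a change in total mRNA cannot be seen, and values are not comparable between genes. Of 23786 probesets, 23093 were named through RefSeq and 693 were left without a symbol.

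Each comparison was fitted with limma 3.58.1 in R 4.3.3 (lmFit and eBayes, per line, unpaired, 3 against 3 arrays), after the study's methods. Adjusted p-values (Benjamini-Hochberg) covered every probeset that any array of the set showed above that array's median, and the threshold for a call was an adjusted p of 0.05. The difference in response between lines was an interaction term over 12 arrays. Scripts were tested on simulated data. Arrays have no read depth, and the number of arrays limits the precision.

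The histone genes, the other gene lists and the tests were chosen with earlier results of these data known. Genes named with values were the 8 with the smallest adjusted p and the 3 most positive and 3 most negative among those called in a comparison, the members with polyadenylated transcripts, up to 4 genes of each other list, and CTNNB1. Those on arrays that stood apart, the pairs that share a promoter, NPAT, H4C1, H4C3, H4C5 and others outside that rule were chosen after their values were seen. Alternatives were no intensity filter, a filter on 3 arrays, the study's thresholds, equal array medians, cyclic loess, a trended robust prior, a single fit over 12 arrays, a replicate block and leaving out each array. A few genes of the lists are not reported here, and counts refer to those measured.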

Additional observations from a re-analysis of the deposited data

Results flagged for a closer look

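The ICG-001 response differed between HSC-3 and CAL27 cells for 12 of 43 histone genes by the limma test of that difference. Over all probesets tested, 13.9% had a higher and 13.3% a lower response in HSC-3 cells. The difference passed in neither direction for 31 of the 43, beside 9813 of all 13493. The count of histone genes thus lay near the share of all probesets. The difference, as the HSC-3 minus the CAL27 log2 fold change, was positive for H2BC5 at 1.75, H2BC21 at 0.94, H1-1 at 0.85, H2BC18 at 2.71, H2AC21 at 0.72, H4C1 at 1.13, H3C6 at 0.59 and H2AC8 at 0.32. It was negative for H3C12 at −0.68, H2BC14 at −0.64, H2AC4 at −0.71 and H3C8 at −0.45. Without HSC-3 ICG-001 replicate 1, H3C6 was not past the threshold, at 0.49. H2AC4, H2AC8, H3C6 and H3C8 each lost the call when at least one other array was left out, and the other 8 kept it under every setting that used an adjusted p of 0.05.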

How the results depend on the processing

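Under the study's thresholds (0.01 for adjusted p, 1.5-fold), ICG-001 lowered 6 histone genes and raised 2 in HSC-3 cells. Of all 13493 probesets tested, it lowered 1080 and raised 1217. In CAL27 cells it lowered 7 histone genes and raised 0, beside 232 and 221 probesets. The HSC-3 minus CAL27 response passed below 0 for 2 histone genes and above 0 for 6, beside 694 and 876 probesets. Untreated HSC-3 cells read below untreated CAL27 cells for 6 histone genes and above them for 5, beside 2014 and 2008 probesets. A trended, robust prior and a single fit over 12 arrays each gave 1 higher in CAL27 cells, and the single fit gave 5 lower in HSC-3 DMSO than in CAL27 DMSO. Leaving out 1 array gave 11 to 20 lower in CAL27 cells (11 without CAL27 DMSO replicate 2) and 2 to 4 with a lower response in HSC-3 than in CAL27 cells (2 without CAL27 DMSO replicate 1 or 2, CAL27 ICG-001 replicate 1 or 2, or HSC-3 DMSO replicate 2). These ranges are given without the shares of all probesets in the same fits. Called genes that held under every setting that kept the adjusted p of 0.05 were 16 of 17 in HSC-3 cells, 9 of 21 in CAL27 cells, 8 of 12 for the difference in response and 19 of 27 between untreated lines.

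Values that changed sign were those of genes not called, and only a part of these genes is listed here. Among those not listed, H3C6 in HSC-3 cells had 0.03 with all arrays and −0.06 without ICG-001 replicate 1. With CTNNB1 siRNA, H2BC3 had −0.40 with all arrays and 0.04 without Control siRNA replicate 1. Over the left-out arrays, the HSC-3 log2 fold change ran from −0.12 to 0.69 for H2BC6, −0.40 to 1.19 for H2BC9, −0.24 to 0.43 for H3C10, −0.34 to 0.68 for H4C4, −0.44 to 0.44 for H4C2, −0.22 to 0.83 for H3C7, −0.96 to 0.16 for H2BC3 and −0.75 to 0.044 for H2BC11. With CTNNB1 siRNA it ran from −1.04 to 0.028 for H2BC8 and −0.81 to 0.10 for H4C4. The lowest HSC-3 values came without ICG-001 replicate 1, and the positive siRNA values without Control siRNA replicate 1. The cause was not tested.

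With the replicate number as a block, HSC-3 cells had 13 genes lower and 5 higher (19.9% and 21% of all probesets), CAL27 cells 19 and 0 (4.4% and 3.96%), and CTNNB1 siRNA 0 and 0 (0.00789% and 0%). Same-numbered arrays deviated together at correlations of −0.02 to 0.05 in HSC-3, 0.03 to 0.18 in CAL27 and −0.007 to 0.05 in the siRNA set, and the numbers were not taken as pairs.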
